A study of Drosophila melanogaster with 6 samples.

Results

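Early secretory pathway and translocon genes encode the machinery that moves new proteins into the endoplasmic reticulum (ER), processes them there and carries them between the ER and the Golgi apparatus. A list of 37 such genes of Drosophila melanogaster was matched by FlyBase symbol or synonym to the 15886 rows of an FPKM table (fragments scaled to gene length and library total) from fly heads. The match found 36 of them, with Sec62 listed under its current symbol Trp1 and Ergic53 as ergic53; no row carried the current identifier of Tango1, which was not analysed here. Spase12 was listed at 0 in every library, so 35 members entered the tests. Membership follows from gene function, and the list was drawn up with earlier results of these data known.

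RNA came from adult flies on day 7 after RU486 was added to the food. The flies of the 3 RNAi-GLAD libraries had the genotype TubGS>RNAi-GLAD, and those of the 3 RNAi-Ctrl libraries had the genotype TubGS>RNAi-GFP, with an RNA interference construct against GFP, a jellyfish protein. Both groups therefore carried the TubGS driver, and both received the drug. The driver is expressed from a tubulin promoter and turns on its construct in most cells once RU486 is present. The labels give the tissue as head, while their protocol speaks of 100 pooled brains per sample, and they name neither the gene behind GLAD nor the sex of the flies. ninaE, the main rhodopsin of the outer photoreceptors, was the row with the highest mean in the table, at 25152 to 26327 FPKM, so retinal RNA was abundant in all 6 libraries.

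Proteins with a signal sequence are brought to the ER by the signal recognition particle and its receptor, and pass the membrane through the Sec61 channel. Signal peptidase removes the signal sequence and oligosaccharyltransferase attaches N-glycans to the growing chain. COPII-coated vesicles then carry cargo from the ER to the Golgi, COPI-coated vesicles bring escaped ER proteins and receptors back, and SNARE proteins fuse the vesicles with their target. In flies the transcription factor CrebA drives many of these genes in cells that secrete heavily, such as the embryonic salivary gland, and the unfolded protein response raises a number of them under ER stress.

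The deposited values imply totals of 22.1 to 23.4 M fragments in the RNAi-GLAD libraries and 23.9 to 29.5 M fragments in the RNAi-Ctrl libraries, and in a 2000 bp gene a single fragment added 0.0169 to 0.0227 FPKM. Each of the 35 tested members rested on at least 454 fragments in every library. RNAi-GLAD 3 and RNAi-Ctrl 3 stood apart from the other libraries of their groups. Of the 527 genes of any function that differed between the libraries numbered 1 and 2, 522 had the opposite sign between RNAi-GLAD 3 and RNAi-Ctrl 3. No gene was available that would check the labels, so counts and ranges are given for all 6 libraries and for the libraries numbered 1 and 2, and libraries are called by their labels throughout. Fold changes of single genes are those of the libraries numbered 1 and 2 unless all 6 are named.

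As labelled, with 3 libraries against 3, no member differed by more than the spread between libraries. limma called 0 of the 35 members and 0 of 9631 genes (0% of all tested genes), with 0 members and 112 genes at an unadjusted p under 0.05. Fold changes, given throughout as differences of log2(FPKM + 1) with RNAi-Ctrl subtracted from RNAi-GLAD, were nevertheless positive for 34 of the 35 members, with a median of 0.15 against 0.01 over all tested genes. They ranged from -0.03 for Sar1 to 0.28 for deltaCOP. In the median-of-ratios and quantile scalings 31 of the 35 were positive. The median was 0.303 without RNAi-Ctrl 3, 0.087 without RNAi-Ctrl 1 with 30 positive, 0.059 without RNAi-Ctrl 2 with 24 positive, and 0.339 when libraries were weighted by their spread. The smallest p among the members belonged to SrpRbeta (log2 fold change 0.24 ± 0.13, SE; adjusted p = 0.999). The RNAi-GLAD and RNAi-Ctrl values overlapped for all 35 members, where 4.0% of all tested genes had groups that did not overlap.

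**Figure D1:**
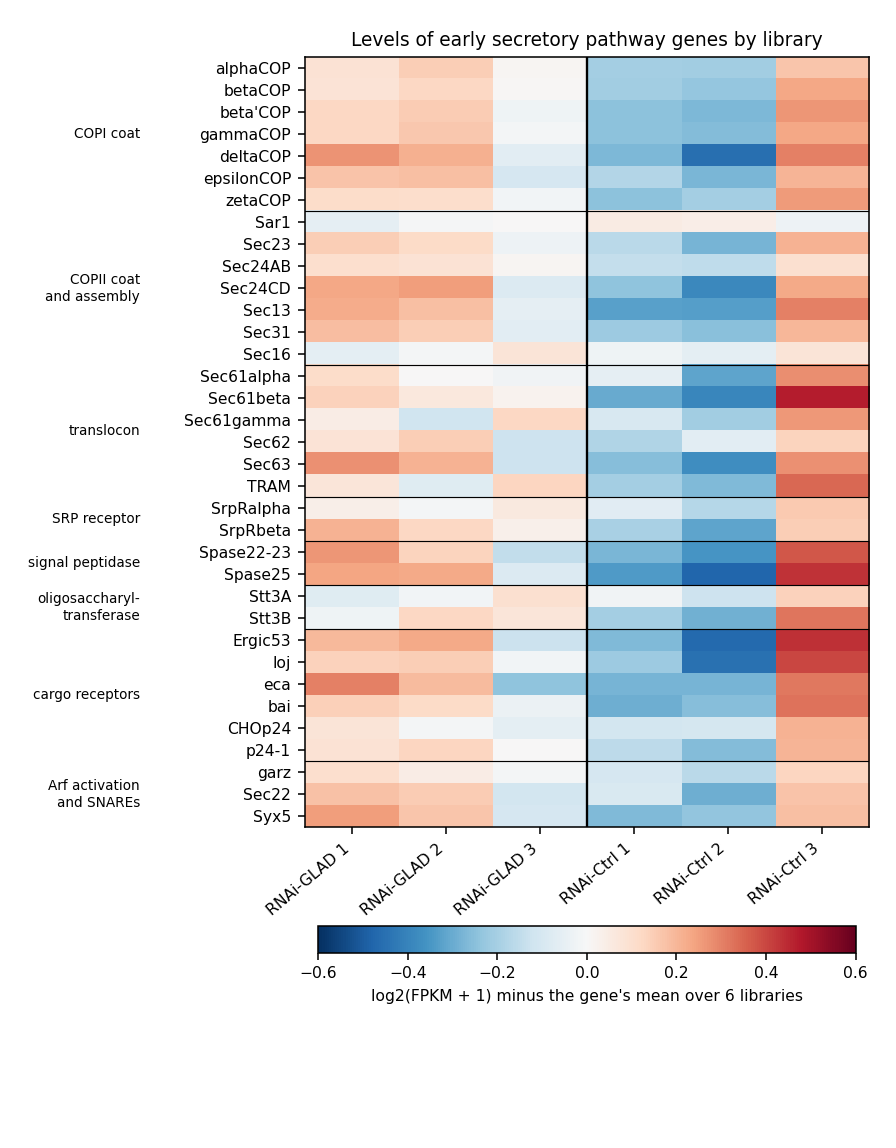
Level of each tested member in each library, as log2(FPKM + 1) minus that gene's mean over the 6 libraries, with RNAi-GLAD left and RNAi-Ctrl right of the black line and members ordered by role. Most rows are red in RNAi-GLAD 1, RNAi-GLAD 2 and RNAi-Ctrl 3, pale in RNAi-GLAD 3 and blue in RNAi-Ctrl 1 and RNAi-Ctrl 2, while Sar1, Sec16 and Stt3A vary little.

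The mean over the 35 members, set against each member's own mean, was 0.13, 0.11 and -0.03 log2 units in RNAi-GLAD 1, 2 and 3, and -0.19, -0.26 and 0.24 log2 units in RNAi-Ctrl 1, 2 and 3. RNAi-Ctrl 3 thus held the highest mean of the 6 libraries and RNAi-Ctrl 2 the lowest, although both carry the control label. RNAi-Ctrl 3 was the library with the highest level for 26 of the 35 members. The lowest class mean was that of RNAi-Ctrl 2 in all 8 functional classes, and the highest was that of RNAi-Ctrl 3 in all but the fusion and Arf genes, where RNAi-GLAD 1 stood at 0.18 and RNAi-Ctrl 3 at 0.16 log2 units.

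In the libraries numbered 1 and 2, machinery of the early secretory pathway was higher in RNAi-GLAD across most roles. Of the 35 members, 19 rose, 0 fell and 16 did not pass the test (limma, adjusted p under 0.05), where 4.1% of the 9661 tested genes were called higher. Fold changes were positive for 34 members and had a median of 0.35, against 0.02 over all tested genes, of which 54.7% were positive. The differences were small in size, from 1.26-fold to 1.57-fold for the called genes as a ratio of mean FPKM. For 31 members both RNAi-GLAD libraries lay above both RNAi-Ctrl libraries, which was so for 32.5% of all tested genes. The number of calls depended on having 2 libraries per group, and few or no members were called with any 1 of the 4 left out. Such a fit has a lone library in a group. Its calls fell over all tested genes too, by a smaller share than among the members, and this contrast was not tested. The fold changes stayed about as large, with medians of 0.347 to 0.403 over the 4 libraries left out in turn. Without the mean-variance trend Sec13 was the only member called, beside 165 of all 9661 tested genes. The pair numbered 3 was set aside because of its measured values, so these p-values describe the 4 libraries kept and not the 2 genotypes.

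**Figure D2:**
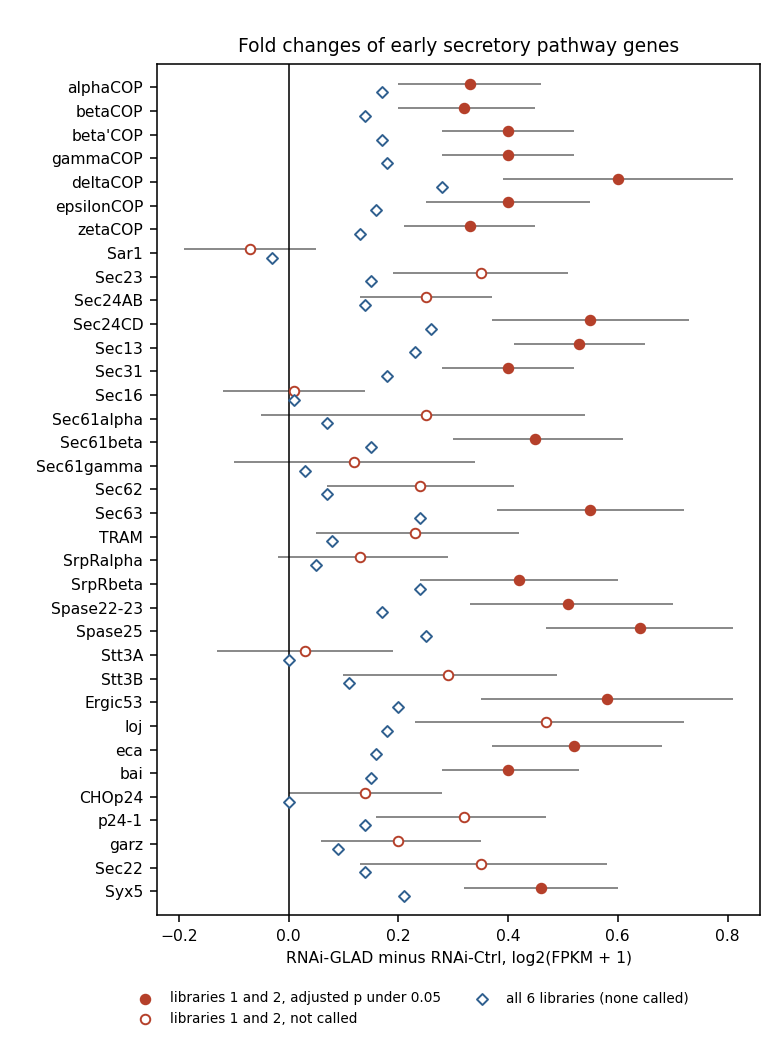
Fold change of each tested member as a difference of log2(FPKM + 1), with positive values where RNAi-GLAD was higher. Circles are the libraries numbered 1 and 2 with their 95% confidence interval, filled where the adjusted p is under 0.05, and diamonds are all 6 libraries as labelled; the filled circles lie between 0.32 and 0.64, and the diamonds between -0.03 and 0.28.

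The COPI coat, which returns escaped ER proteins from the Golgi, was higher as a whole in RNAi-GLAD 1 and 2. Its 7 subunits form a single complex, called coatomer, and all 7 passed the test, with log2 fold changes of 0.32 to 0.60. With all 6 libraries the fold changes were 0.13 to 0.28 and 0 passed. In the libraries numbered 1 and 2 limma called 4 of the 7 with median-of-ratios or quantile scaling, 3 with no filter on low values and 0 without the mean-variance trend. Over all tested genes it called 442, 504, 254 and 165 in these settings, against 527 in the main one. deltaCOP was at 65.4, 62.9 and 51.8 FPKM in RNAi-GLAD 1, 2 and 3, and at 44.7, 39.3 and 67.1 FPKM in RNAi-Ctrl 1, 2 and 3. RNAi-GLAD 1 and 2 were high and RNAi-Ctrl 1 and 2 low, with RNAi-GLAD 3 between them and RNAi-Ctrl 3 above them all. The fold change of deltaCOP was the largest of the coat (0.60 ± 0.08, SE; adjusted p = 0.0358), and its 95% interval of 0.39 to 0.81 overlapped those of the other subunits.

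beta'COP, 1 of the 2 COPI subunits with a propeller that binds retrieval signals, was at 49.0, 50 and 44.1 FPKM in RNAi-GLAD 1, 2 and 3, against 37.7, 37 and 54.1 FPKM in RNAi-Ctrl 1, 2 and 3. Its relative alphaCOP was at 41.9, 43.7 and 39.7 FPKM in the RNAi-GLAD libraries in the same order, against 34.0, 33.9 and 44.3 FPKM in the RNAi-Ctrl libraries. In both genes RNAi-Ctrl 3 was highest, RNAi-GLAD 3 lay between the other RNAi-GLAD libraries and RNAi-Ctrl 1 and 2, and the spread within RNAi-Ctrl 1 and 2 was under 1 FPKM for both genes. Fold changes were 0.40 ± 0.04 for beta'COP (adjusted p = 0.0276) and 0.33 ± 0.05 for alphaCOP (adjusted p = 0.0422). gammaCOP, which with zetaCOP belongs to the inner layer of the coat, had 34.3, 35.3 and 31.2 FPKM in RNAi-GLAD 1, 2 and 3, and 26.3, 26.1 and 37.1 FPKM in RNAi-Ctrl 1, 2 and 3 (0.40 ± 0.04, adjusted p = 0.0285).

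zetaCOP, the small partner of gammaCOP, was at 66.0, 65.7 and 60.3 FPKM in RNAi-GLAD 1, 2 and 3, against 51.4, 52.9 and 73.1 FPKM in RNAi-Ctrl 1, 2 and 3 (0.33 ± 0.04, adjusted p = 0.0383). betaCOP, which with deltaCOP completes the inner layer, was at 55.4, 57.0 and 52.5 FPKM in RNAi-GLAD, against 45.1, 44.4 and 61.5 FPKM in RNAi-Ctrl (0.32 ± 0.04, adjusted p = 0.0409). epsilonCOP, which binds alphaCOP in the outer layer, was at 43.9, 44.2 and 36.2 FPKM in RNAi-GLAD, against 34.4, 32.0 and 45.0 FPKM in RNAi-Ctrl (0.40 ± 0.05, adjusted p = 0.0405). In all 3 genes RNAi-Ctrl 3 was the highest library and RNAi-Ctrl 1 and 2 the lowest. Levels of the 7 subunits, which are comparable between genes because FPKM is per length, spanned 26.1 to 73.1 FPKM over all libraries, with gammaCOP lowest and zetaCOP and deltaCOP highest.

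Of the 7 genes of the COPII coat, which buds vesicles from the ER, Sec13, Sec31 and Sec24CD rose in RNAi-GLAD 1 and 2, and Sar1, Sec16, Sec23 and Sec24AB did not pass. With all 6 libraries their fold changes were -0.03 to 0.26 and 0 passed. Sec13, which forms the outer cage with Sec31 and is also part of the nuclear pore, was at 85.0, 82.6 and 70.1 FPKM in RNAi-GLAD 1, 2 and 3, and at 57.9, 57.6 and 90.0 FPKM in RNAi-Ctrl 1, 2 and 3. It had the smallest p of all members (log2 fold change 0.53 ± 0.04, adjusted p = 0.0195), a 1.45-fold ratio of the means of 83.8 ± 1.73 FPKM in RNAi-GLAD and 57.8 ± 0.223 FPKM in RNAi-Ctrl (SD, n = 2 each). Sec31 was at 38.3, 37.3 and 32.1 FPKM in the RNAi-GLAD libraries, against 28.7, 28.1 and 38.7 FPKM in the RNAi-Ctrl libraries (0.40 ± 0.05, adjusted p = 0.0286). Both cage genes had RNAi-GLAD 3 between the other 2 RNAi-GLAD libraries and RNAi-Ctrl 1 and 2.

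Sec24 picks the cargo, and flies have 2 forms of it. Sec24CD was at 40.6, 41.1 and 32.5 FPKM in RNAi-GLAD 1, 2 and 3, and at 29.0, 26.1 and 40.5 FPKM in RNAi-Ctrl 1, 2 and 3 (0.55 ± 0.07, adjusted p = 0.0310). Sec24AB was at 25.0, 24.7 and 23.4 FPKM in RNAi-GLAD, against 20.9, 20.8 and 24.9 FPKM in RNAi-Ctrl (0.25 ± 0.04, adjusted p = 0.0592). The 95% intervals of the 2 forms, 0.37 to 0.73 and 0.13 to 0.37, meet at their ends, and the difference between them was not tested. Sec23, the partner of Sec24 that stimulates the GTPase Sar1, stood just outside the threshold (0.35 ± 0.06, adjusted p = 0.0579).

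Sar1, the GTPase that starts the coat, was at 119, 123 and 124 FPKM in RNAi-GLAD 1, 2 and 3, and at 128, 127 and 121 FPKM in RNAi-Ctrl 1, 2 and 3. It was the only member with a negative fold change (-0.07 ± 0.04, adjusted p = 0.390), with both RNAi-Ctrl 1 and RNAi-Ctrl 2 above RNAi-GLAD 1 and RNAi-GLAD 2, and its 95% interval of -0.19 to 0.05 ends below the interval of every called member. Sec16, the large scaffold of ER exit sites, was at 24.5, 25.3 and 27.0 FPKM in RNAi-GLAD, against 25.1, 24.5 and 27.0 FPKM in RNAi-Ctrl. Its fold change of 0.01 ± 0.05 (adjusted p = 0.95) had an interval of -0.12 to 0.14 and turned to -0.02 and -0.04 in the median-of-ratios and quantile scalings.

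**Figure D3:**
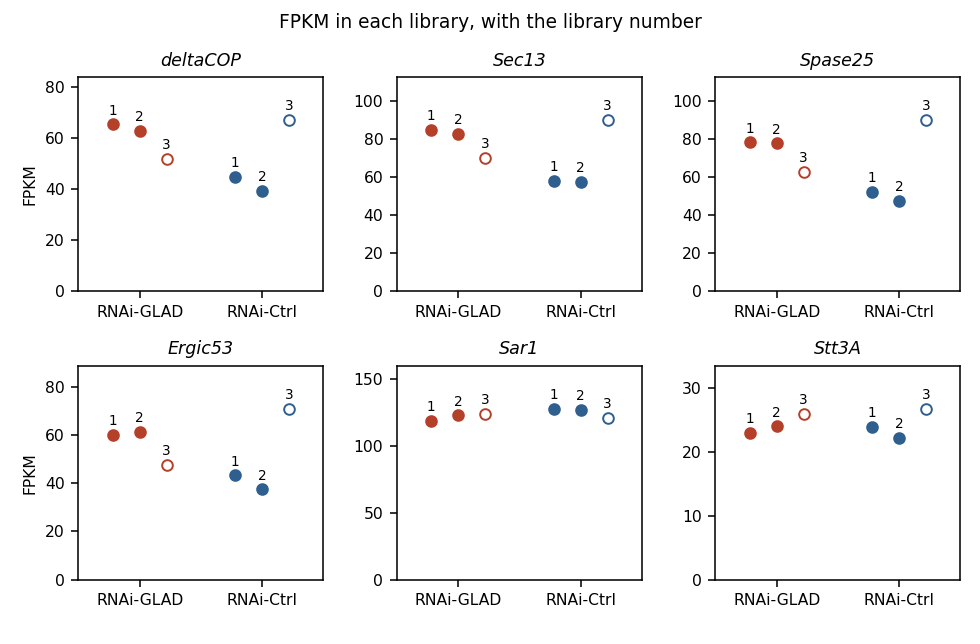
FPKM of 6 members in each library, with RNAi-GLAD left, RNAi-Ctrl right and the library number above each point; open points are the libraries numbered 3. For deltaCOP, Sec13, Spase25 and Ergic53, RNAi-Ctrl 3 lies above the other RNAi-Ctrl libraries and RNAi-GLAD 3 below the other RNAi-GLAD libraries, while Sar1 stays between 119 and 128 FPKM and Stt3A between 22.2 and 26.8 FPKM.

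At the ER membrane, entry and processing genes rose in part. Of the translocon genes 2 of 6 rose in RNAi-GLAD 1 and 2, of the signal recognition particle receptor 1 of 2, of the signal peptidase both tested subunits, and of the oligosaccharyltransferase catalytic subunits 0 of 2. With all 6 libraries 0 of these 12 genes passed, with fold changes of 0.03 to 0.24 for the translocon, 0.05 to 0.24 for the receptor, 0.17 to 0.25 for signal peptidase and 0.00 to 0.11 for the catalytic subunits. Sec63, a membrane partner of Sec61 with a J domain that recruits the chaperone BiP, was at 98.8, 94.4 and 74.7 FPKM in RNAi-GLAD 1, 2 and 3, and at 68.2, 62.9 and 98.8 FPKM in RNAi-Ctrl 1, 2 and 3 (0.55 ± 0.06, adjusted p = 0.0281). An antisense RNA annotated opposite to Sec63 covers 60.7% of its exon bases, and reads of the 2 strands cannot be told apart where strand was not used in counting, and the sources used here do not state that setting.

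The Sec61 channel has 3 subunits, and they did not share a call. Sec61beta was at 144, 137 and 133 FPKM in RNAi-GLAD 1, 2 and 3, against 106, 99.5 and 182 FPKM in RNAi-Ctrl 1, 2 and 3 (0.45 ± 0.06, adjusted p = 0.0341). RNAi-Ctrl 3 stood far above the other libraries for this gene, at the highest level of any member. Sec61alpha, which forms the pore, was at 105, 97.5 and 95.7 FPKM in RNAi-GLAD, against 93.6, 77.9 and 118 FPKM in RNAi-Ctrl (0.25 ± 0.11, adjusted p = 0.258), with a spread within RNAi-Ctrl 1 and 2 that was wide beside the difference. Sec61gamma was at 85.4, 76.1 and 90.3 FPKM in RNAi-GLAD, against 77.4, 71.4 and 99.3 FPKM in RNAi-Ctrl (0.12 ± 0.08, adjusted p = 0.450), and here the RNAi-GLAD and RNAi-Ctrl libraries numbered 1 and 2 overlapped. Sec62 (0.24 ± 0.06, adjusted p = 0.116), which works with Sec63 on short precursors, and TRAM (0.23 ± 0.07, adjusted p = 0.142), a channel-associated protein, did not pass either.

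SrpRbeta, the subunit that anchors the receptor of the signal recognition particle in the ER membrane, was at 26.4, 24.8 and 23.2 FPKM in RNAi-GLAD 1, 2 and 3, and at 19.7, 18.0 and 25.2 FPKM in RNAi-Ctrl 1, 2 and 3. Its fold change was 0.42 ± 0.07, and its adjusted p rounds to the threshold of 0.05 and lies just under it. Its partner SrpRalpha was at 53.6, 51.9 and 54.4 FPKM in RNAi-GLAD, against 49.8, 46.3 and 58.5 FPKM in RNAi-Ctrl (0.13 ± 0.06, adjusted p = 0.251). The called subunit was thus the one at the lower level in every library.

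Signal peptidase held the member with the largest fold change. Spase25, a noncatalytic subunit of the enzyme, was at 78.2, 77.7 and 62.6 FPKM in RNAi-GLAD 1, 2 and 3, and at 52.1, 47.4 and 90.0 FPKM in RNAi-Ctrl 1, 2 and 3. Means in the libraries numbered 1 and 2 were 78.0 ± 0.336 FPKM in RNAi-GLAD and 49.8 ± 3.34 FPKM in RNAi-Ctrl (SD, n = 2 each), and the fold change was 0.64 ± 0.06 on the log2 scale (adjusted p = 0.0232). Spase22-23, another noncatalytic subunit, was at 69.4, 63.4 and 51.9 FPKM in RNAi-GLAD, against 47.5, 44.9 and 75.0 FPKM in RNAi-Ctrl (0.51 ± 0.07, adjusted p = 0.0369). In both genes RNAi-Ctrl 3 was the highest library. Spase12, the third, was listed at 0 in all 6 libraries, and 100% of its annotated exon bases lie opposite exons of CG2006, which was itself at 2.04 to 2.85 FPKM. Acp95EF, which shares 243 exon bases with Spase22-23 on the other strand, was likewise listed at 0 throughout.

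Stt3A and Stt3B are the alternative catalytic subunits of oligosaccharyltransferase; in mammals STT3A acts at the channel during synthesis and STT3B on sites that were passed over. Stt3B was at 47.7, 52.9 and 51.1 FPKM in RNAi-GLAD 1, 2 and 3, and at 42.0, 39.6 and 60.8 FPKM in RNAi-Ctrl 1, 2 and 3 (0.29 ± 0.07, adjusted p = 0.106). Stt3A was at 23.0, 24 and 26.0 FPKM in RNAi-GLAD, against 23.9, 22.2 and 26.8 FPKM in RNAi-Ctrl (0.03 ± 0.06, adjusted p = 0.830). The Stt3A interval ran from -0.13 to 0.19, its libraries numbered 1 and 2 overlapped between the groups, and its fold change turned to -0.02 in the quantile scaling.

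Cargo receptors carry selected proteins into COPII vesicles, and 3 of the 6 measured rose in RNAi-GLAD 1 and 2. With all 6 libraries their fold changes were 0.00 to 0.20 and 0 passed. Ergic53, a lectin that carries glycoproteins from the ER, was at 59.9, 61.3 and 47.6 FPKM in RNAi-GLAD 1, 2 and 3, and at 43.2, 37.4 and 70.9 FPKM in RNAi-Ctrl 1, 2 and 3 (0.58 ± 0.08, adjusted p = 0.0434). Its difference between RNAi-GLAD 3 and RNAi-Ctrl 3 was the most negative of the members, at -0.57 log2 units. The other 5 belong to the p24 family, small membrane proteins that cycle between ER and Golgi. eca was at 57.8, 53.4 and 39.4 FPKM in RNAi-GLAD, against 38.3, 38.3 and 58.4 FPKM in RNAi-Ctrl (0.52 ± 0.06, adjusted p = 0.0268). bai was at 103, 101 and 91.0 FPKM in RNAi-GLAD, against 75.8, 78.0 and 117 FPKM in RNAi-Ctrl (0.40 ± 0.04, adjusted p = 0.0276). Both of these p24 genes, which flies need for dorsoventral patterning of the embryo, had RNAi-Ctrl 1 and 2 close together and RNAi-Ctrl 3 above every other library.

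The 3 p24 genes that did not pass differed in how far they stood from the threshold. loj, known for its part in egg laying, was at 24.6, 24.8 and 22.0 FPKM in RNAi-GLAD 1, 2 and 3, and at 19.0, 16.1 and 29.7 FPKM in RNAi-Ctrl 1, 2 and 3 (0.47 ± 0.09, adjusted p = 0.0664). p24-1 had a fold change of 0.32 ± 0.06 (adjusted p = 0.0625). CHOp24 was at 80.2, 75.5 and 72.9 FPKM in RNAi-GLAD, against 70.4, 70.6 and 87.9 FPKM in RNAi-Ctrl, the smallest difference of the cargo receptors (0.14 ± 0.05, adjusted p = 0.199). For all 3 genes both RNAi-GLAD libraries numbered 1 and 2 lay above both RNAi-Ctrl libraries.

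Of the 3 fusion and Arf genes only Syx5 passed, and with all 6 libraries 0 did, at fold changes of 0.09 to 0.21. Syx5, the Golgi syntaxin on which vesicles from the ER fuse, was at 58.7, 55.3 and 45.8 FPKM in RNAi-GLAD 1, 2 and 3, and at 40.8, 41.5 and 55.9 FPKM in RNAi-Ctrl 1, 2 and 3 (0.46 ± 0.05, adjusted p = 0.0282). Sec22, an R-SNARE that pairs with it, was at 34.6, 34.1 and 28.2 FPKM in RNAi-GLAD, against 28.6, 24.8 and 34.5 FPKM in RNAi-Ctrl (0.35 ± 0.08, adjusted p = 0.0963). garz, the exchange factor that activates Arf for COPI assembly, was at 26.8, 25.7 and 24.7 FPKM in RNAi-GLAD, against 23.2, 22.2 and 27.3 FPKM in RNAi-Ctrl (0.20 ± 0.05, adjusted p = 0.114). All 3 genes had higher values in RNAi-GLAD 1 and 2 than in RNAi-Ctrl 1 and 2, with 95% intervals above 0, but only Syx5 did so beyond the threshold over all genes.

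The libraries numbered 3 share no library with the comparison above and have 1 library per group, so they give differences with no test. Between RNAi-GLAD 3 and RNAi-Ctrl 3, 33 of the 35 members were lower in RNAi-GLAD 3, where 50.1% of all tested genes were. The 2 exceptions were Sar1, at 124 FPKM in RNAi-GLAD 3 and 121 FPKM in RNAi-Ctrl 3, and Sec16, at 27.0 FPKM in both. All 19 called members had the opposite sign in this pair, as had 99.1% of the 527 genes called. The size of the members' fold changes and their calls therefore depend on the pair numbered 3. Fold changes were positive for 34 of the 35 both with all 6 libraries and in the libraries numbered 1 and 2, with medians of 0.15 and 0.35. The 6 libraries include those numbered 1 and 2, so the shared sign is not separate evidence on direction. Without both libraries numbered 2 the median was 0.029 with 26 positive. Without both numbered 1 it was 0.066 with 28 positive.

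The pair numbered 3 was not a mirror image of the others. RNAi-GLAD 3 lay above both RNAi-Ctrl 1 and RNAi-Ctrl 2 for 32 of the 35 members, against 40.9% of all tested genes, with Sar1, Sec62 and Sec22 as exceptions. RNAi-Ctrl 3 lay above both RNAi-GLAD 1 and RNAi-GLAD 2 for 27 of the 35, against 30.7% of all tested genes. Sec61beta showed this most widely, with RNAi-Ctrl 3 at 182 FPKM and RNAi-GLAD 1 and 2 at 144 and 137 FPKM.

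**Figure D4:**
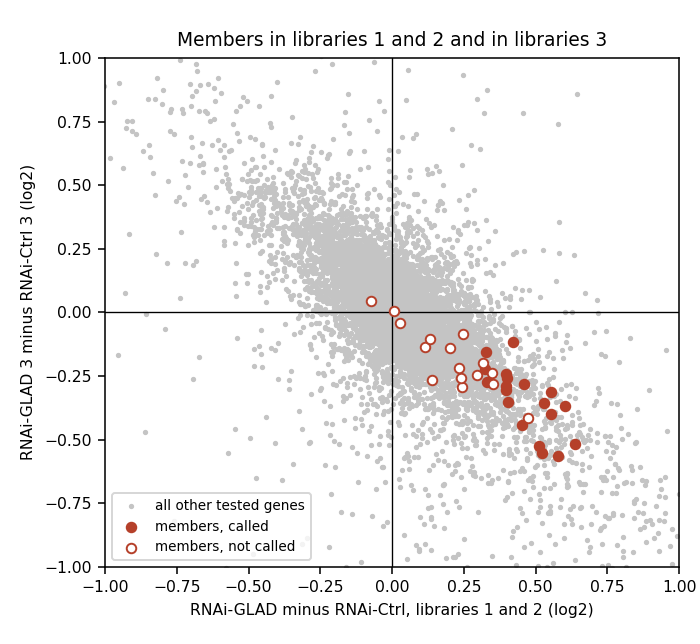
Each tested gene's fold change in the libraries numbered 1 and 2 (horizontal axis) against its difference between RNAi-GLAD 3 and RNAi-Ctrl 3 (vertical axis), both on the log2(FPKM + 1) scale. Members are circles, filled where called; all 19 filled circles lie at the lower right, and 457 of 9661 genes lie outside the axes, which end at 1 in each direction.

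Other genes of the pathway, of which 66 of 74 listed were matched in 9 groups, were in part higher in RNAi-GLAD 1 and 2. Of 65 tested, 20 rose, 0 fell and 45 did not pass, beside the 4.1% of all tested genes that were called higher. Fold changes were positive for 61 of the 65, with a median fold change of 0.22 against 0.02 over all tested genes. As labelled, with all 6 libraries, limma called 0 of them, at a median of 0.11 and with 0.11 to 0.34 for the 20 called above, with Use1 the only 1 at an unadjusted p under 0.05 (0.0388). Bet1, a SNARE that acts with Syx5 and Sec22, had the largest fold change (0.97 ± 0.06, adjusted p = 0.0118), at 50.5, 54.0 and 23.6 FPKM in RNAi-GLAD 1, 2 and 3, and 26.6, 25.8 and 45.5 FPKM in RNAi-Ctrl 1, 2 and 3. RNAi-GLAD 3 was its lowest library. Of 14 SNARE and tether genes 6 rose, among them the Golgi stacking protein Grasp65 (0.61 ± 0.06) and the tether p115 (0.56 ± 0.07).

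Partners of the ER membrane members rose in uneven numbers. The remaining subunits of oligosaccharyltransferase rose in 4 of 5 cases, among them Dad1 (0.57 ± 0.05), Ostgamma (0.60 ± 0.06) and Ost48 (0.44 ± 0.04), beside the catalytic Stt3A and Stt3B, of which 0 passed. twr, the catalytic subunit of signal peptidase, was at 113, 104 and 72.0 FPKM in RNAi-GLAD 1, 2 and 3, against 65.9, 62.9 and 130 FPKM in RNAi-Ctrl 1, 2 and 3 (0.74 ± 0.06, adjusted p = 0.0195), so its libraries stood in the same order as those of Spase25 and Spase22-23. It was the only called gene among 5 translocon-associated and signal peptidase partners. Of the signal recognition particle itself 2 of 6 proteins rose, Srp68 (0.53 ± 0.06) and Srp54k (0.45 ± 0.05).

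Arf and its regulators held 3 called genes of 5, which were Arf79F (0.34 ± 0.04), the GTPase that recruits COPI, and its GTPase-activating proteins ArfGAP1 (0.44 ± 0.06) and ArfGAP3 (0.46 ± 0.07). Of the other p24 genes and cargo receptors 1 of 5 rose, PAPLA1 (0.62 ± 0.05), a phospholipase relative that acts at ER exit sites. In the remaining groups the calls were 2 of 13 N-glycan precursor genes, Alg2 (0.35 ± 0.05) and Alg5 (0.31 ± 0.05), 1 of 5 TRAPP tether genes, Bet3 (0.35 ± 0.05), and 0 of 7 COG tether genes, whose smallest p was that of Cog6 (0.50 ± 0.10, adjusted p = 0.0771). Whether the groups differ from each other was not tested.

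**Figure D5:**
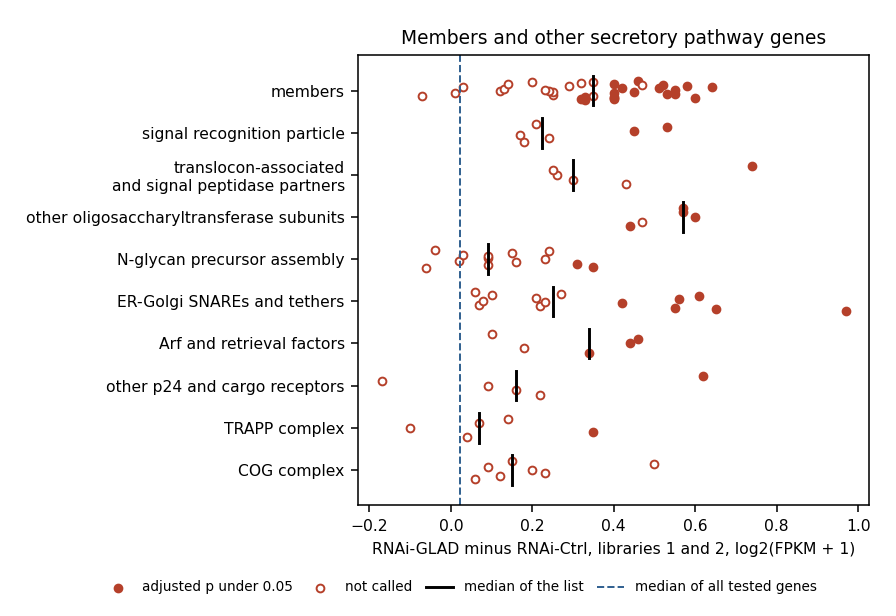
Fold changes in the libraries numbered 1 and 2, as differences of log2(FPKM + 1), for the members and for each group of other pathway genes. Each circle is a gene, filled where the adjusted p is under 0.05, black bars are medians and the dashed line is the median of all tested genes (0.02); the medians run from 0.07 for TRAPP to 0.57 for oligosaccharyltransferase subunits, with 0.35 for the members.

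Of 6 regulators of these genes 0 passed, a count that says little beside a share of 4.1% over all tested genes. With all 6 libraries 0 passed either, at fold changes of -0.05 to 0.13. CrebA was at 17.9, 15.3 and 14.4 FPKM in RNAi-GLAD 1, 2 and 3, and at 14.5, 14.2 and 16.1 FPKM in RNAi-Ctrl 1, 2 and 3 (0.20 ± 0.09, adjusted p = 0.260). Xbp1, the transcription factor whose messenger is spliced by Ire1 under ER stress, was at 266, 283 and 272 FPKM in RNAi-GLAD, against 244, 241 and 293 FPKM in RNAi-Ctrl (0.18 ± 0.05, adjusted p = 0.15); gene-level values do not show its splicing. PEK, the ER stress kinase, had the smallest p (0.26 ± 0.06, adjusted p = 0.0982). At an unadjusted p under 0.05 in limma stood Xbp1 and PEK (0.0282 and 0.0115), as did 2409 of all 9661 tested genes.

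Level, position and fold change are given here as a description. Across the 35 members, level and fold change had a Spearman correlation of 0.03, given as a description because the genes share the same libraries. The called members lay on every large chromosome arm, with 4 of 6 tested members on 2L, 2 of 4 on 2R, 5 of 6 on 3L, 5 of 8 on 3R and 3 of 11 on the X chromosome. On the autosomes together 16 of 24 were called, with a median fold change of 0.40, beside 0.23 on the X chromosome. The difference was not tested. Shares over all tested X-linked and autosomal genes were not computed, so a contrast of the members cannot be told from one of all genes. deltaCOP (X, 1859141 to 1861790 in BDGP6) and Spase25 (X, 11485250 to 11486566) were X-linked, and Sec13 (23356278 to 23358531) lies on 3R.

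Of 31 markers of cell types that could be tested, limma called 1 in the libraries numbered 1 and 2. That count says little beside the 527 called of all 9661 tested genes. The called marker was Amy-p (1.03 ± 0.10, adjusted p = 0.0221 in limma). Amy-p, a digestive amylase on the midgut and salivary list, was at 128, 149 and 46.3 FPKM in RNAi-GLAD 1, 2 and 3, and at 64.0, 70.6 and 137 FPKM in RNAi-Ctrl 1, 2 and 3. As in most members, RNAi-GLAD 1 and 2 and RNAi-Ctrl 3 were the high libraries.

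The 4 matched neuronal markers summed to 698, 711 and 691 FPKM in RNAi-GLAD 1, 2 and 3, and to 755, 734 and 690 FPKM in RNAi-Ctrl 1, 2 and 3, and the 5 glial markers to 1063, 1100 and 1123 FPKM in RNAi-GLAD, against 1174, 1136 and 1039 FPKM in RNAi-Ctrl, both the reverse order of the members in the libraries numbered 1 and 2. In the libraries numbered 1 and 2 the glial markers repo, nrv2 and moody overlapped between the groups, while Gs2 and Eaat1 did not. The 3 hemocyte markers summed to 72.7, 89.5 and 80.6 FPKM in RNAi-GLAD, against 66.0, 75.4 and 94.1 FPKM in RNAi-Ctrl, and overlapped between the groups in the libraries numbered 1 and 2. Hml overlapped there too. NimC1 did not, at 28.5 and 34.2 FPKM in RNAi-GLAD against 22.3 and 25.6 FPKM in RNAi-Ctrl, and He was too low to be tested. The 5 fat body markers summed to 577, 803 and 888 FPKM in RNAi-GLAD, against 1253, 703 and 1073 FPKM in RNAi-Ctrl. RNAi-Ctrl 1 held most of the yolk protein signal, with Yp1 at 296 FPKM there and at 0.735 to 3.28 FPKM in the other 5 libraries. Lsp2, a storage protein on the same list, was at 164, 281 and 231 FPKM in RNAi-GLAD, against 63.3, 112 and 461 FPKM in RNAi-Ctrl, and did not pass (1.34 ± 0.39, adjusted p = 0.141).

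The 5 testis and accessory gland markers summed to 37.5, 1.13 and 2.27 FPKM in RNAi-GLAD 1, 2 and 3, and to 2.86, 19.5 and 25.3 FPKM in RNAi-Ctrl 1, 2 and 3. The 4 midgut and salivary markers summed to 274, 149 and 54.2 FPKM in RNAi-GLAD, against 108, 119 and 146 FPKM in RNAi-Ctrl. The larval Sgs3 was at 0 in all libraries. As in most members, the sum was higher in RNAi-GLAD in the libraries numbered 1 and 2 and lower in those numbered 3. Amy-p followed this order, but betaTry and Jon65Aiii did not. Both were near 0 in RNAi-GLAD 2, at 0.0553 FPKM for betaTry and 0 FPKM for Jon65Aiii. In the libraries numbered 1 and 2 they overlapped between the groups, with negative fold changes (-1.85 ± 2.22 and -0.76 ± 2.03). Photoreceptor markers summed to 26966 to 27987 FPKM in RNAi-GLAD and 27314 to 27903 FPKM in RNAi-Ctrl, and muscle markers to 406 to 508 FPKM in RNAi-GLAD and 420 to 453 FPKM in RNAi-Ctrl. The photoreceptor sum was nearly all ninaE. norpA was at 282 and 315 FPKM in RNAi-GLAD 1 and 2, against 337 and 358 FPKM in RNAi-Ctrl 1 and 2, and did not pass. The photoreceptor markers ninaE, trp and ninaC overlapped there. The part of cell makeup in the members' differences was not tested, and in pooled heads fewer cells of a type and less RNA per cell cannot be told apart.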

How the data were processed

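The authors deposited 1 table of FPKM values with a column per library, made from 150 bp paired-end reads; the submitters' processing notes list TopHat, BDGP6 and dm6 and give no version. The sources used here do not name the counter, its annotation or its use of strand. Names, places and exon lengths came from the Ensembl release 115 annotation of BDGP6 and from RefSeq synonyms. Library totals were read from low FPKM values, of which 53.7% to 54.5% worth up to 50 fragments were whole within 0.02 fragments (2.5% to 2.9% at other totals), and with lengths from another annotation they are approximate.

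log2(FPKM + 1) of genes with a mean of at least 1 FPKM was tested with limma 3.58.1 in R 4.3.3 (mean-variance trend, two-sided, Benjamini-Hochberg over all genes, threshold 0.05), for all 6 libraries and for the 4 numbered 1 and 2. The test was tried on simulated data whose spread came from the libraries numbered 1 and 2 only. That trial therefore says nothing about the test of all 6 libraries, where the pair numbered 3 adds to the spread. The labels do not say whether replicates are separate crosses or pools of flies, so p-values reflect only how these samples vary, which may be technical variation. With 2 libraries per group chosen for how the pair numbered 3 stood, the p-values describe those 4 libraries.

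Members and lists were chosen with earlier results of these data known. All members are named, and of each other list up to 3 genes with the smallest p in the libraries numbered 1 and 2; Use1, CrebA, Amy-p, Yp1, Lsp2, CG2006 and Acp95EF were named after their values were seen. Figures used Python 3.11.15 and matplotlib 3.10.9.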

Additional observations from a re-analysis of the deposited data

How the results depend on the processing

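As labelled, 0 members and 0 other pathway genes were called under every pseudocount (0.1 and 0.5), filter, scaling, trend, weighting and replicate block setting and without each library in turn; without both libraries numbered 3 the counts were 19 and 20, and without both numbered 1 or both numbered 2 they were 0. In the libraries numbered 1 and 2, the 19 members and 20 other genes became 10 and 10 without a filter, 23 and 22 at a mean of at least 5 FPKM, 14 and 13 with median-of-ratios scaling, 1 and 4 without the mean-variance trend, and 0 and 0 at a threshold of 0.01. Calls over all tested genes moved too, from 527 to 254, 743, 442, 165 and 17 in these settings in the same order. Leaving out 1 of these 4 libraries gave 0 to 3 members and 0 to 7 other genes; the lone sample of a group was then taken to vary like the other group. Same-numbered libraries had negative correlations of their deviations (-0.354, -0.404 and -0.460 over all 6), so the numbers were not taken as pairs. The replicate block gave 14 members and 14 other genes, and a crossed block, added after the data were seen, 0 and 0. Over all tested genes the calls were 512 and 17 with these blocks.

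The members in the pair numbered 3 that were lower in RNAi-GLAD 3 stayed at 33 under every pseudocount and scaling, also added later. The log2 fold change of Sec16 turned to -0.017 with median-of-ratios scaling and -0.0382 with quantile normalization, and ran from -0.0154 to 0.0288 over the libraries left out. That of Stt3A turned to -0.017 with quantile normalization and ran from -0.0237 to 0.078. No other member changed sign in the libraries numbered 1 and 2 under these settings. The causes were not tested.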
